A study of Mus musculus with 4 samples.

Results

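The BCL2 family genes were examined in RNA-Seq counts of lung tumor-infiltrating CD4+ T cells, as 10 genes chosen by name: the pro-survival genes *Bcl2*, *Bcl2l1*, *Bcl2l2* and *Mcl1*, the effectors *Bax* and *Bak1*, and the BH3-only genes *Bcl2l11*, *Bid*, *Pmaip1* and *Bbc3*. All 10 were among the 25239 gene symbols listed for each library, and all 10 passed the filter on low counts that left 13919 genes for testing. By label, the 4 libraries were 2 WT and 2 CD4/ALK4-KO biological replicates, all from C57BL/6 mice that were inoculated intravenously with 500000 LLC-OVA cells, Lewis lung carcinoma cells that express ovalbumin. The labels give excision of the lung tumors 18 to 22 days later, whereas the methods give a slightly earlier window for the CD4/ALK4-KO experiment. The CD4/ALK4-KO mice have the genotype CD4CreERT2+/-/Acvr1bfl/fl, in which tamoxifen induces Cre recombinase from the *Cd4* promoter and so deletes *Acvr1b*, the gene of the activin receptor ALK4, in cells that express *Cd4*. They received 5 daily doses of 75 mg/kg of tamoxifen, and the methods give male mice aged 8 to 10 weeks. Whether the WT mice carried Cre or received tamoxifen, and how many mice made up a library, is not given in the sources used here.

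BCL2 family proteins set the threshold of the mitochondrial pathway of apoptosis. The effectors BAX and BAK open pores in the outer mitochondrial membrane, the pro-survival proteins hold them in check, and the BH3-only proteins sense stress and neutralise the pro-survival proteins or activate the effectors. In T cells, BCL2 is maintained by cytokines such as interleukin-7, MCL1 is needed at nearly every stage, BCL-XL (from *Bcl2l1*) rises after activation, and BIM (from *Bcl2l11*) drives the death of cells at the end of a response.

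The libraries held 13869889 and 13943237 counts on genes for WT and 11959487 and 11823908 for CD4/ALK4-KO. Values are given as counts or as CPM, counts per 1000000 of a library size adjusted by the TMM method, and ± gives the SD between the 2 libraries of a genotype (n = 2). WT and CD4/ALK4-KO stand for the libraries so labelled. Fold changes are those of CD4/ALK4-KO over WT on the log2 scale, each with its standard error (SE) and a p-value from the quasi-likelihood test of edgeR after Benjamini-Hochberg adjustment over the 13919 genes. The targeted gene *Acvr1b* did not separate the labels: it had 426 and 342 counts under the WT label against 322 and 445 under the CD4/ALK4-KO label, which gave 0.16 on the log2 scale (SE 0.24, adjusted p = 0.66). These counts are per gene symbol, and deletion in the cells that express *Cd4* was not tested. *Cd4* itself went from 759 and 649 to 3654 and 4033 counts (2.62, SE 0.23, adjusted p = 2.8e-08). Each of 16 T cell markers was higher in CD4/ALK4-KO, and their summed levels were 547 and 607 CPM in WT against 3063 and 3089 CPM. The 8 B cell markers (60.1 and 71.4 against 232 and 437 CPM) and the 8 CD8 T and NK cell markers (144 and 193 against 599 and 689 CPM) were all higher as well. Of 11 macrophage and monocyte markers 2 were higher, with summed levels of 6567 and 8025 against 6995 and 7497 CPM, and of 7 fibroblast and stromal markers 5 were lower, with 6538 and 6947 against 3629 and 4238 CPM. Of 8 neutrophil markers 2 were higher (948 and 1467 against 966 and 1528 CPM), of 8 epithelial markers 2 were higher and 4 lower (946 and 967 against 495 and 629 CPM), and of 6 endothelial markers 1 was higher and 1 lower (54.6 and 71.2 against 124 and 140 CPM). None of these markers was at 0 in any library, so RNA of genes typical of other cell types was present in every library, and its part in the results was not tested. In such mixed RNA, fewer cells of a type and less RNA per cell cannot be told apart. Fold changes are also given on a CD3 scale. On it, counts were scaled to the summed counts of *Cd3d*, *Cd3e*, *Cd3g* and *Cd247*, which encode signalling chains of the T cell receptor complex. This scale moved the log2 fold change of the median gene by -2.18. Only the scaling uses T cell genes, and the scaled counts still include RNA of other cell types. A lower value on it is therefore not a lower level per T cell.

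Of the 10 BCL2 family genes, *Bcl2*, *Bcl2l11* and *Pmaip1* rose and *Bcl2l1* fell in CD4/ALK4-KO, although *Bcl2l11* and *Pmaip1* were lower on the CD3 scale. *Bcl2* changed most, from 23.7 ± 1.20 CPM in WT to 139 ± 9.72 CPM in CD4/ALK4-KO, a 5.87-fold difference of means. The other 6 genes did not pass an adjusted p of 0.05. Among all genes tested 17.4% were called higher and 15.4% lower, so 3 of 10 higher and 1 of 10 lower lie close to those shares at this number of genes. The levels of the genotypes did not overlap for 9 of the 10 genes, 5 higher and 4 lower in CD4/ALK4-KO, where 32.7% of all genes were higher and 34.0% lower without overlap. The genes kept the same order of fold changes on the CD3 scale at another level: 9 of the 10 genes were lower at an adjusted p under 0.05, as were 92.0% of all genes tested, and *Bcl2* did not pass the threshold.

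**Figure D1:**
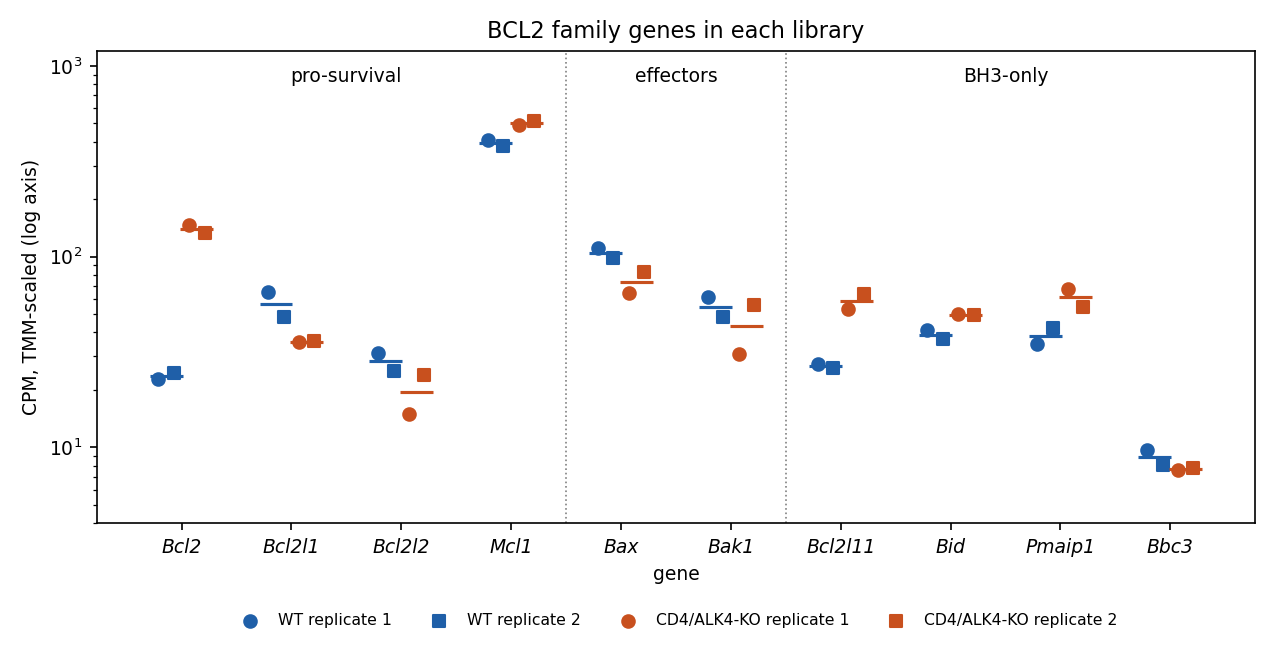
TMM-scaled CPM (log axis) of the 10 genes in each of the 4 libraries, in blue for WT and orange for CD4/ALK4-KO, with circles for replicate 1, squares for replicate 2 and bars at the group means. The CD4/ALK4-KO libraries lie far above the WT libraries for Bcl2, at 132 and 146 against 22.8 and 24.5 CPM, and the groups mix only for Bak1.

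*Bcl2* (chromosome 1, 106538178 to 106714274, minus strand, GRCm38) encodes the founding member of the family, which sequesters BIM and other BH3-only proteins. Its counts were 313 and 332 in WT against 1737 and 1632 in CD4/ALK4-KO. Both CD4/ALK4-KO libraries lay several times above both WT libraries, and replicates were close to each other. The log2 fold change was 2.55 (SE 0.22, adjusted p = 3.3e-08), with a range of 2.49 to 2.62 when single libraries were omitted. This rise was of the size of that of the T cell markers, whose median log2 fold change was 2.40. Per 1000 counts of the 4 CD3 genes, *Bcl2* had 118 and 135 counts in WT and 161 and 164 in CD4/ALK4-KO, levels that did not overlap but lay close together. Its log2 fold change on that CD3 scale was 0.36 (SE 0.25, adjusted p = 0.16), and 0.13 (adjusted p = 0.60) when all 16 T cell markers served as the scale. The B cell markers rose with it, with a median of 2.59, and the part of B cells in the *Bcl2* counts was not tested. An antisense transcript overlaps 558 bp of *Bcl2* exons, and its reads could not be told from those of *Bcl2* there if strand was not recorded.

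The sequences just upstream of 3 of the 4 genes that changed are shown because *Bcl2* and *Bcl2l11* rose while *Bcl2l1* fell; none is shown for *Pmaip1*, which also rose. They are the 250 bases before the RefSeq transcription start nearest to the annotated 5′ end of the gene (build GRCm38.p6), read 5′ to 3′ along the gene. *Bcl2* lies at chr1:106714291-106714540 on the minus strand, *Bcl2l11* at chr2:128125788-128126037 on the plus strand and *Bcl2l1* at chr2:152831729-152831978 on the minus strand. Capitals mark every match, on either strand, to 1 of 6 motifs: the GC box GGGCGG, the TATA box TATAAA, the E-box CACGTG, the cAMP response element TGACGTCA, the STAT site TTCNNNGAA and the forkhead site GTAAACA.
Bcl2: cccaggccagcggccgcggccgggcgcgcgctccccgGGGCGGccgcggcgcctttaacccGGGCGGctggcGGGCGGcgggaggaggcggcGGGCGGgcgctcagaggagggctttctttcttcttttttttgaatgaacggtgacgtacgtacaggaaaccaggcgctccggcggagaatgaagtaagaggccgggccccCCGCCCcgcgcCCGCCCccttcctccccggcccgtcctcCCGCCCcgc
Bcl2l11: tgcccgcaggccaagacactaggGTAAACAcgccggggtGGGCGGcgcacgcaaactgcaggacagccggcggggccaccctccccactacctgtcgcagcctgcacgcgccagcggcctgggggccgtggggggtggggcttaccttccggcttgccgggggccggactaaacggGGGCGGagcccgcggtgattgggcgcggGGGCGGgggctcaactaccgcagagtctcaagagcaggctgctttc
Bcl2l1: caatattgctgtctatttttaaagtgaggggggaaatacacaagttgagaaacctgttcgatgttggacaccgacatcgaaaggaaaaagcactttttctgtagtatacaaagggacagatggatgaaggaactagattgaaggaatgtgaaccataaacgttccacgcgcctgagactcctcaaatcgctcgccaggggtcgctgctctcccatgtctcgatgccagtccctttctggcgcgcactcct

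The *Bcl2* window had 7 GC boxes, a GC content of 74.8% and 36 CG dinucleotides, and the *Bcl2l11* window had 3 GC boxes, a GC content of 72.0%, 24 CG dinucleotides and 1 forkhead site. The *Bcl2l1* window held none of the 6 motifs, with a GC content of 47.6% and 12 CG dinucleotides. RefSeq had 1 start for *Bcl2*, 2 for *Bcl2l11*, 3 for *Bcl2l1* and 3 for *Bbc3*. Only the window of the nearest start was searched, so these contents hold for that start alone. Among 32851 promoter windows of the same length, the median was 52.4% GC and 6 CG dinucleotides. A GC box was found in 32.7% of them, a forkhead site in 3.17%, a STAT site in 7.02%, a TATA box in 12.4%, an E-box in 6.02% and a cAMP response element in 1.55%. Of the genes that did not pass the threshold, *Bbc3* had 5 GC boxes, 2 of them overlapping, *Bid* had 3, *Bax* had 2 and 1 E-box, *Mcl1* and *Bcl2l2* had 1 GC box each and *Bak1* had none, so GC boxes were not limited to the genes that rose. Windows were taken for 9 of the 10 genes, as chromosome 18, which holds *Pmaip1*, was left out of the matching.

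*Bcl2l1* (chromosome 2, 152780668 to 152831728) encodes BCL-XL, which restrains BAX and BAK and is induced in activated lymphocytes. There were 892 and 649 counts in WT and 423 and 443 in CD4/ALK4-KO, so that both CD4/ALK4-KO libraries were below both WT libraries although the WT libraries differed from each other. In CPM it fell from 56.5 ± 12.1 in WT to 35.7 ± 0.243 in CD4/ALK4-KO, a change of -0.66 in log2 units (SE 0.23, adjusted p = 0.027). The call did not hold without WT replicate 1 (-0.43, adjusted p = 0.49), without WT replicate 2 (-0.87, adjusted p = 0.060), or with the replicate number as a block (-0.65, adjusted p = 0.10). Its value on the CD3 scale was the lowest of the 10 genes, at -2.84 (SE 0.26).

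*Mcl1* (chromosome 3, 95658788 to 95663176) encodes a short-lived pro-survival protein that binds BIM and NOXA. It was the most abundant of the 10 genes, with 5595 and 5127 counts in WT and 5851 and 6359 in CD4/ALK4-KO. In CPM the CD4/ALK4-KO libraries lay above the WT libraries, at 503 ± 16.6 against 394 ± 20.7, but the log2 fold change of 0.35 (SE 0.21, adjusted p = 0.21) did not pass the threshold. Scaled to CD3, it was at -1.83. *Bcl2l2* (chromosome 14, 54883377 to 54888234), which encodes BCL-W, had 427 and 341 against 177 and 296 counts. Its log2 fold change was -0.54 (SE 0.27, adjusted p = 0.14), with -0.20 without CD4/ALK4-KO replicate 1 and -0.93 (adjusted p = 0.0045) without CD4/ALK4-KO replicate 2. The *Bcl2l2* exons share 594 bp with a transcript annotated under another gene name on the same strand, so its counts are less certain. *Bax* exons share 192 bp in the same way.

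The effectors were lower on average in CD4/ALK4-KO, and neither passed the threshold. *Bax* (chromosome 7, 45461697 to 45466898) had 1526 and 1330 counts in WT and 764 and 1028 in CD4/ALK4-KO. Both CD4/ALK4-KO libraries were lower than both WT libraries, with 73.7 ± 13.5 against 105 ± 9.22 CPM, and the log2 fold change was -0.51 (SE 0.22, adjusted p = 0.077). It passed the threshold with upper quartile scaling (-0.57, adjusted p = 0.045) and without CD4/ALK4-KO replicate 2 (-0.71, adjusted p = 0.0050), but fell short of it, at -0.30, without CD4/ALK4-KO replicate 1. *Bak1* (chromosome 17, 27019810 to 27029009) had 840 and 648 counts in WT and 365 and 688 in CD4/ALK4-KO. Its CD4/ALK4-KO libraries stood apart from each other, 1 below and 1 within the WT levels, and the log2 fold change of -0.34 (SE 0.26, adjusted p = 0.33) became 0.060 without CD4/ALK4-KO replicate 1 and -0.84 (adjusted p = 0.0028) without CD4/ALK4-KO replicate 2. *Ggnbp1* lies on the opposite strand across *Bak1* exons, and with a kit that does not mark strand its reads cannot be told from those of *Bak1* there.

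Among the BH3-only genes, *Bcl2l11* (chromosome 2, 128126038 to 128162547) encodes BIM, which binds all pro-survival proteins. Its counts were 375 and 351 in WT against 630 and 787 in CD4/ALK4-KO. The WT libraries were nearly equal and both CD4/ALK4-KO libraries were higher, at 58.3 ± 7.65 against 26.7 ± 1.00 CPM. The log2 fold change was 1.13 (SE 0.22, adjusted p = 0.00050), with a range of 0.98 to 1.29 when single libraries were omitted. Its direction turned on the CD3 scale, to -1.05 (SE 0.28, adjusted p = 0.00020). On that scale 92.0% of all genes tested were lower and their median was -2.19, so the turn comes with the scale.

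*Bid*, whose protein links death receptors to mitochondria after cleavage by caspase-8, had 563 and 498 counts in WT and 592 and 608 in CD4/ALK4-KO (chromosome 6, 120891930 to 120916853). In CPM its CD4/ALK4-KO libraries were slightly higher without overlap, and the log2 fold change was 0.35 (SE 0.22, adjusted p = 0.24). *Bid* shares 628 bp of exons with *Bcl2l13* on the opposite strand, and *Bcl2l13* itself rose (0.61, adjusted p = 0.033). Whether reads from the shared exons entered the *Bid* counts was not tested. *Bbc3* (chromosome 7, 16308393 to 16318205) encodes PUMA, a target of p53, and had the fewest counts, with 132 and 109 against 90 and 96 counts. Its log2 fold change of -0.21 (SE 0.32, adjusted p = 0.67) had the largest standard error of the 10 genes.

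*Pmaip1*, which encodes NOXA, a BH3-only protein that binds MCL1 and promotes its degradation, lies on chromosome 18 (66458533 to 66465565). There were 476 and 569 counts in WT against 804 and 672 in CD4/ALK4-KO, higher in both CD4/ALK4-KO libraries. It rose from 38.4 ± 5.18 to 61.0 ± 9.27 CPM, with a log2 fold change of 0.67 (SE 0.22, adjusted p = 0.025). The call did not hold without WT replicate 1 (0.53, adjusted p = 0.37), WT replicate 2 (0.80, adjusted p = 0.11) or CD4/ALK4-KO replicate 1 (0.53, adjusted p = 0.054), nor with the replicate block (0.67, adjusted p = 0.091). It was lower on the CD3 scale, at -1.53 (adjusted p = 1.1e-08), as were 92.0% of all genes tested, whose median there was -2.19.

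**Figure D2:**
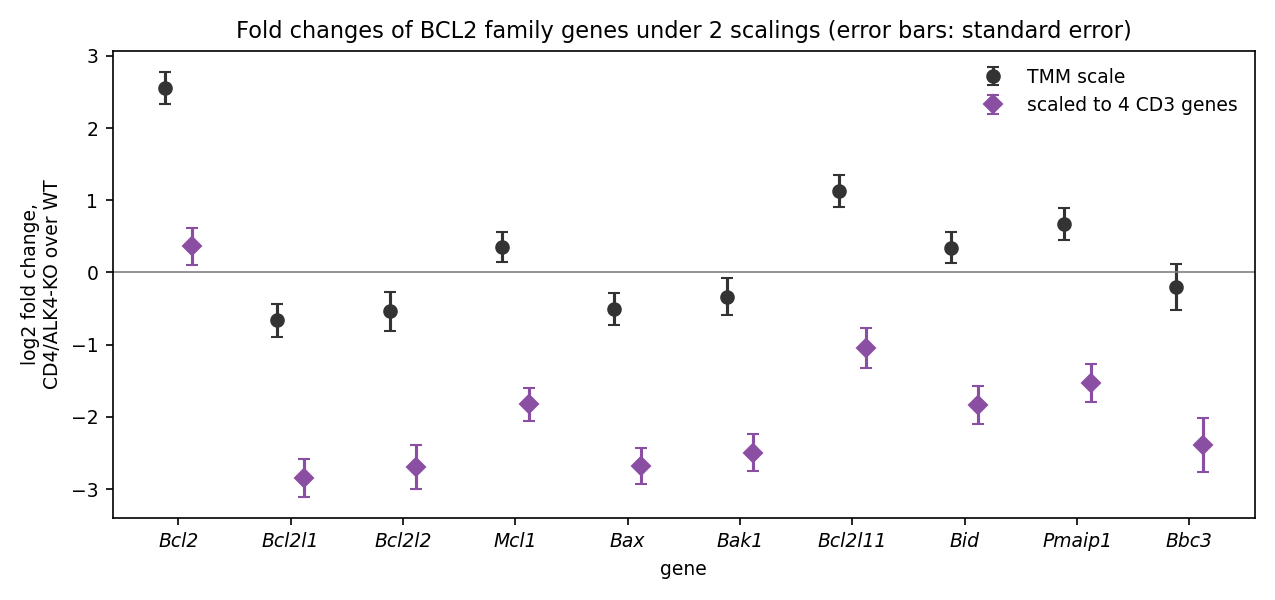
Log2 fold changes (CD4/ALK4-KO over WT) of the 10 genes with standard errors, as black circles on the TMM scale and purple diamonds on the CD3 scale. Bcl2 is highest on both scales (2.55 and 0.36), and the other 9 genes lie below 0 on the CD3 scale.

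Levels were compared between genes after division by exon length, as CPM per kb. In WT, *Mcl1* (115 ± 6.05 CPM per kb) and *Bax* (66.5 ± 5.85) were highest, followed by *Bak1* (22.7 ± 3.93), *Pmaip1* (14.1 ± 1.90), *Bcl2l1* (12.3 ± 2.64), *Bid* (11.0 ± 0.850), *Bcl2l2* (6.32 ± 0.943), *Bbc3* (4.16 ± 0.524), *Bcl2l11* (3.32 ± 0.125) and *Bcl2* (2.59 ± 0.132). The neighbours *Pmaip1* and *Bcl2l1*, and *Bcl2l1* and *Bid*, overlapped between libraries. In CD4/ALK4-KO *Bcl2* stood at 15.2 ± 1.06 CPM per kb, between *Bak1* (17.9 ± 7.36), which it overlapped, and *Bid* (13.9 ± 0.0975). *Mcl1* (147 ± 4.86), *Bax* (46.8 ± 8.56) and *Pmaip1* (22.3 ± 3.39) were above them, and *Pmaip1* and *Bak1* overlapped. *Bcl2l1* (7.79 ± 0.0530) and *Bcl2l11* (7.27 ± 0.953) overlapped, as did *Bcl2l2* (4.35 ± 1.44) and *Bbc3* (3.61 ± 0.0714). Thus *Bcl2* went from the lowest level per length in WT to the middle of the family in CD4/ALK4-KO. Its log2 fold change of 2.55 was of the size of the T cell marker median of 2.40. The part of cell mix in this order was not tested.

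The pro-survival genes together made up 52.7% and 53% of the summed CPM per kb of the 10 genes in WT and 62.5% and 59.5% in CD4/ALK4-KO. The effectors made up 35.4% and 33.6% against 19.6% and 25.4%, and the BH3-only genes 11.9% and 13.4% against 17.9% and 15.1%. The groups did not overlap for any of the 3 roles, but the 3 shares are parts of one whole and not separate results. Among all genes tested, 32.7% were higher and 34.0% lower without overlap in CPM. That is a measure of single genes and gives no reference for how often such shares do not overlap. *Mcl1* alone held 44.0% and 45.3% of the sum in WT and 52.6% and 50.3% in CD4/ALK4-KO. *Bax* held 26.0% and 25.5% against 14.9% and 17.6%, and neither gene passed the threshold. Within the pro-survival genes *Mcl1* held 83.5% and 85.5% in WT and 84.2% and 84.5% in CD4/ALK4-KO, ranges that overlapped. The share of *Bcl2* among them was 1.74% and 2.07% against 9.33% and 8.10%, and that of *Bcl2l1* was 9.92% and 8.07% against 4.54% and 4.39%. The part of cell mix in all these shares was not tested.

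**Figure D3:**
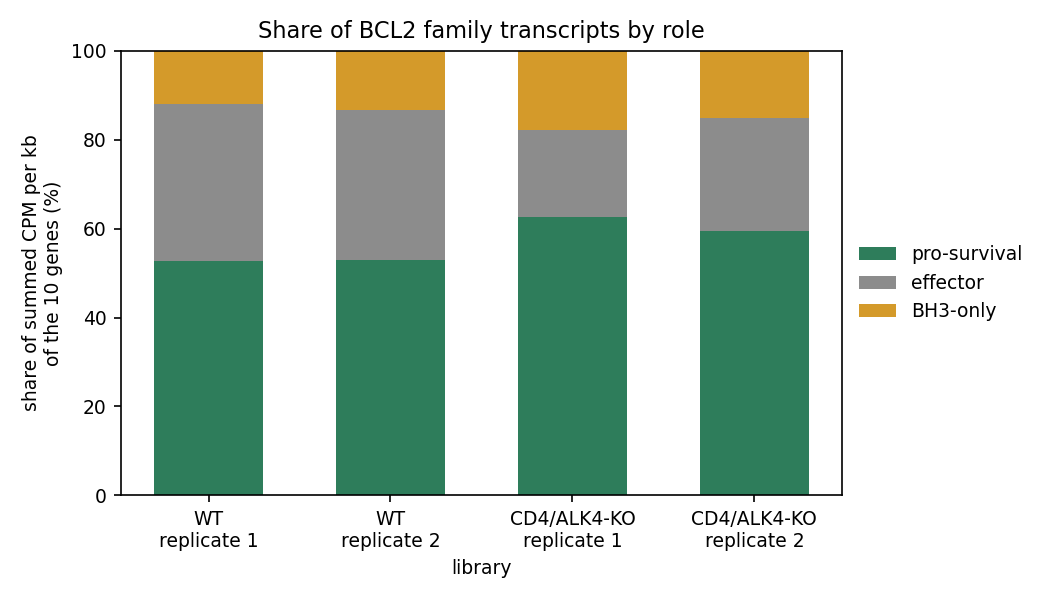
Share of the summed CPM per kb of the 10 genes (%) held by pro-survival, effector and BH3-only genes in each of the 4 libraries. The effector share is 33.6% and 35.4% in the WT libraries and 19.6% and 25.4% in the CD4/ALK4-KO libraries.

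Ratios between members within a library do not depend on how libraries are scaled, and 6 pairs were compared. Such ratios can still depend on the mix of cells in a library. *Bcl2* rose by 2.55 on the log2 scale and the T cell markers by a median of 2.40, and the part of cell mix in the ratios was not tested. The ratio of *Bcl2* to *Bax* per length was 0.0353 and 0.0430 in WT and 0.391 and 0.273 in CD4/ALK4-KO, a difference of 3.07 on the log2 scale. *Bcl2* to *Bcl2l1* went from 0.176 and 0.256 to 2.06 and 1.85, so that *Bcl2* was below *Bcl2l1* in both WT libraries and above it in both CD4/ALK4-KO libraries, a difference of 3.20. *Bcl2* to its BH3-only partner *Bcl2l11* was 0.732 and 0.829 against 2.42 and 1.82, and *Bcl2* to *Mcl1* was 0.0209 and 0.0242 against 0.111 and 0.0958. *Mcl1* to *Bcl2l11* was lower in CD4/ALK4-KO, at 35.0 and 34.3 against 21.8 and 19.0. In these 5 pairs the genotypes did not overlap, but with 2 against 2 libraries the two-sided exact permutation test cannot give less than p = 0.33, which each of them had (0.40 after Benjamini-Hochberg adjustment over the 6 pairs). *Bcl2l1* to *Bax* overlapped, with 0.201 and 0.168 against 0.190 and 0.148, and gave p = 0.67 in the same exact test.

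**Figure D4:**
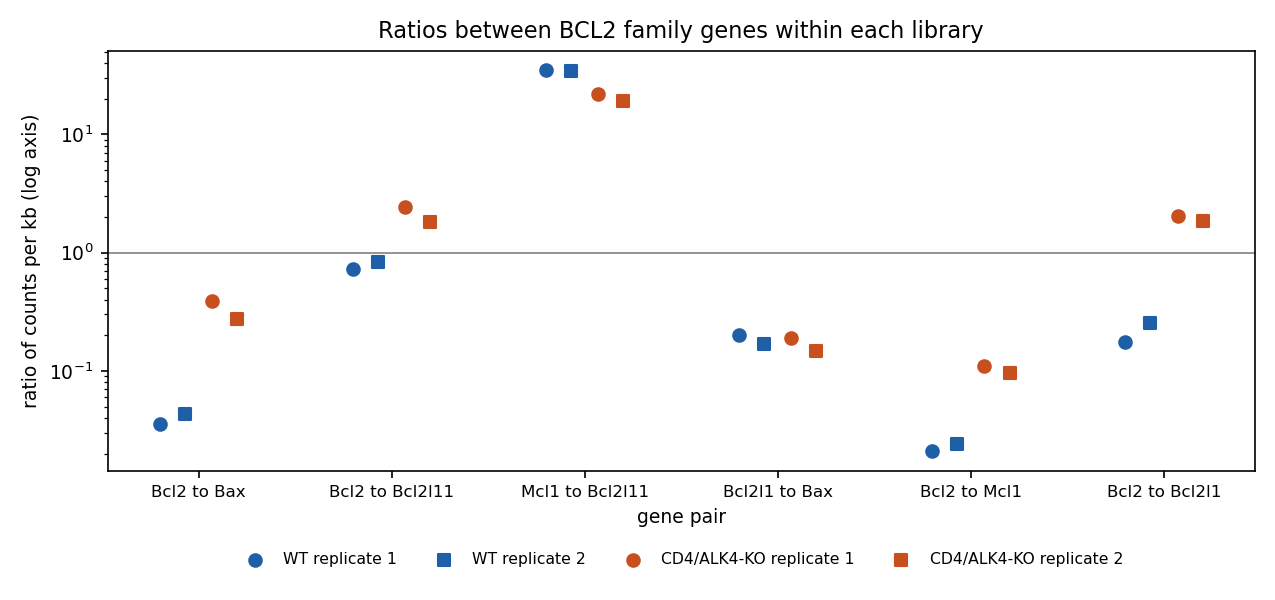
Ratio of counts per kb between pairs of BCL2 family genes within each library (log axis), in blue for WT and orange for CD4/ALK4-KO. The ratio of Bcl2 to Bcl2l1 lies at 0.176 and 0.256 in WT and at 2.06 and 1.85 in CD4/ALK4-KO, while that of Bcl2l1 to Bax overlaps.

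Of the further genes named hereafter as rising, all lay below 0 on the CD3 scale except *Foxo1* (0.023, adjusted p = 0.94), *Il2rb* (0.083, adjusted p = 0.74), *Il2ra* (0.79, adjusted p = 0.013) and *Myb* (1.38, adjusted p = 0.00042). The counts of each list stand against the 17.4% of all genes tested that were higher and the 15.4% that were lower. Of 16 other genes of the BCL2 family, 13 were tested, of which 1 rose and 3 fell, with a median log2 fold change of -0.098 against -0.0082 over all genes tested. *Bok*, which encodes a further effector-like protein, fell from 581 and 375 counts to 158 and 108 (log2 fold change -1.67, adjusted p = 0.00012). The BH3-only gene *Bad* (-0.68, adjusted p = 0.041) and the hypoxia-induced mitophagy gene *Bnip3* (-0.91, adjusted p = 0.0037) fell, and *Bcl2l13* was the gene that rose. With the DESeq2 Wald test *Bad* did not pass the threshold (adjusted p = 0.056). *Bnip3l* was at -0.43 (adjusted p = 0.25) with 5121 and 7782 counts in WT and 5451 and 3038 in CD4/ALK4-KO. The pro-survival A1 genes *Bcl2a1a* (-0.15), *Bcl2a1b* (-0.051) and *Bcl2a1d* (0.19) did not pass the threshold, and as near-identical copies they can share or lose reads. *Bmf* (-0.098), *Bcl2l12* (0.026), *Bcl2l14* (0.68), *Bcl2l15* (-1.27) and *Bik* (1.82) did not pass it either, the last 2 at 25 counts or fewer per library. *Bcl2a1c*, *Bcl2l10* and *Hrk* had at most 7 counts per library and were not tested.

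Downstream of the mitochondria, 2 of 12 apoptosome and caspase genes rose and 3 fell, near the shares over all genes. Among them, cytochrome c (*Cycs*, -1.01, adjusted p = 0.0011) and *Aifm1* (-0.64, adjusted p = 0.025) fell, whereas *Apaf1*, which assembles the apoptosome (0.79, adjusted p = 0.0078), and *Dffb*, the caspase-activated nuclease (1.12, adjusted p = 0.0076), rose. *Diablo* (-0.41) and *Casp6* (-0.37) did not pass the threshold. Of 5 inhibitors of apoptosis, *Birc2* (0.78), *Birc3* (1.04) and *Birc6* (1.49) rose and the mitotic gene *Birc5* fell (-1.17, adjusted p = 0.00026), while *Xiap* was at 0.31 (adjusted p = 0.31). Of 9 genes of the death receptor pathway, *Fasl* (1.4), *Cflar*, the inhibitor of caspase-8 (0.70), and *Ripk1* (0.73) rose, and the other 6, among them *Casp8* (0.54) and *Tnfrsf1a* (-0.022), did not pass the threshold. The CD3 scale put the medians of these 3 lists at -2.39, -1.42 and -1.82, against -2.19 over all genes tested.

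Upstream, 6 of 8 receptor and kinase genes of the cytokines that sustain *Bcl2* rose, with a median of 1.45. *Il7r*, the receptor chain for interleukin-7, went from 2191 and 2324 counts to 7673 and 5142 (1.68, adjusted p = 1.3e-05), *Il2rg*, the common gamma chain, rose by 1.87 and *Jak1* by 1.01. The interleukin-2 receptor chains *Il2ra* (2.98) and *Il2rb* (2.24) and the kinase gene *Jak3* (1.23) rose as well, while *Il4ra* was at 0.35 (adjusted p = 0.25). Of 10 transcription factors known to act on BCL2 family genes 5 rose, *Stat5b* (1.55), *Nfkb1* (0.71), *Foxo1* (2.20), *Stat5a* (1.46) and *Myb* (3.61), and *E2f1* fell (-0.91). *Myb* had 33 and 39 counts in WT against 589 and 188 in CD4/ALK4-KO, so its CD4/ALK4-KO libraries differed widely (SE 0.57). *Rela* (0.36) and *Atf4* (-0.091) did not pass the threshold. In the p53 network, which induces *Bax*, *Bbc3* and *Pmaip1*, 2 of 12 genes rose (*Mdm4*, 1.06, and *Trp53inp1*, 1.66) and *Phlda3* fell (-1.72), whereas *Mdm2* (0.27) and *Ccng1* (-0.059) did not pass it. Of 4 genes that control MCL1 turnover, the ubiquitin ligases *Huwe1* (1.41) and *Fbxw7* (0.78, adjusted p = 0.042) rose, and *Usp9x* (0.52) and *Btrc* (0.086) did not pass the threshold. With the DESeq2 Wald test *Fbxw7* did not pass it either (adjusted p = 0.058). These 4 lists had medians on the CD3 scale of -0.74, -1.63, -2.10 and -1.55. The genes *Il2ra*, *Il2rb*, *Jak3*, *Foxo1*, *Stat5a*, *Myb*, *E2f1*, *Phlda3*, *Fasl*, *Cycs*, *Aifm1*, *Dffb* and *Birc5* were named after their values were seen, and every other gene by its place in a list.

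**Figure D5:**
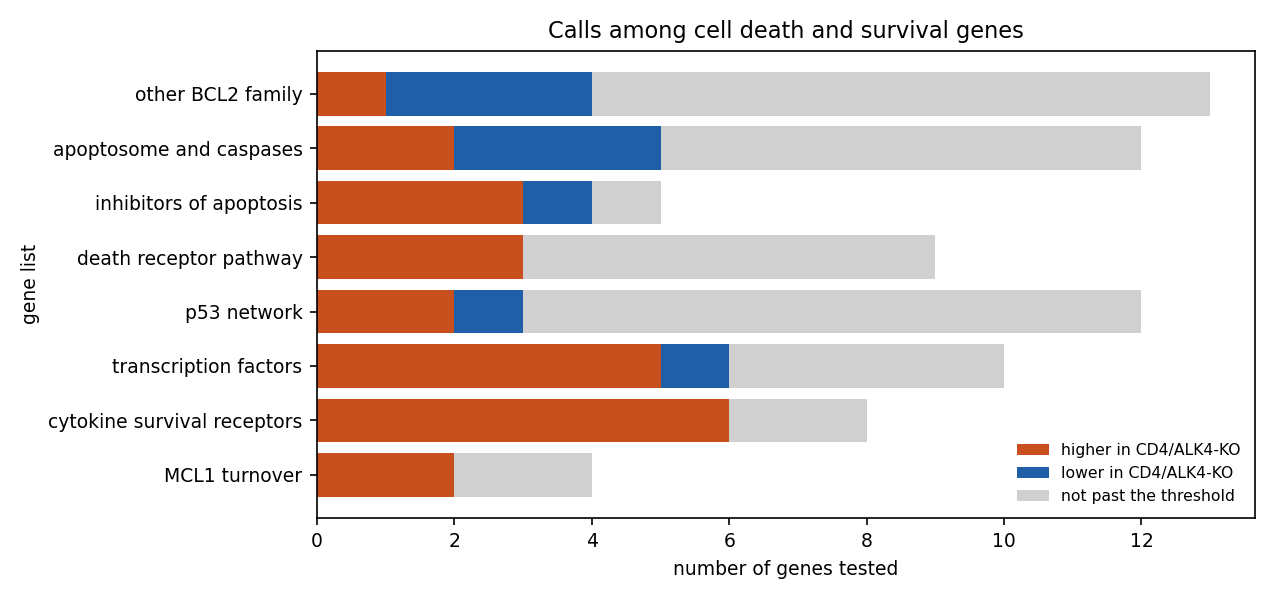
Number of genes in each of 8 lists of cell death and survival genes that were higher (orange), lower (blue) or not past an adjusted p of 0.05 (grey) in CD4/ALK4-KO, on the TMM scale. The cytokine survival receptors had 6 of 8 genes higher, and the other genes of the BCL2 family had 1 of 13 higher and 3 lower. Among all genes tested 17.4% were higher and 15.4% lower. On the CD3 scale 67 genes of the 8 lists were lower and 2 higher, and 92.0% of all genes tested were lower.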

How the data were processed

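Per the labels and the paper's methods, the authors prepared TruSeq RNA v2 libraries (as background, a kit that does not mark strand), aligned single-end reads to mm10 with HISAT2 and used htseq-count (intersection-nonempty) for counting. The deposited raw counts per gene symbol are not normalized. The annotation, the strand option and tool versions are not given in the sources used here.

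From the counts, edgeR 4.0.16 (R 4.3.3) was run with filterByExpr, TMM, a robust quasi-likelihood fit on genotype and glmQLFTest, with Benjamini-Hochberg adjustment over 13919 genes. Standard errors were derived from the log2 fold change and its F statistic. The script was tested on simulated data. Replicates differed by more than sampling noise (chi-square per degree of freedom 17.1 for WT and 30.5 for CD4/ALK4-KO). Positions and exon lengths are from GENCODE M21 (GRCm38, the same assembly as mm10), and upstream sequences from RefSeq. *Trac*, *Trbc1* and *Trbc2* of the T cell receptor list were not analysed, as they were not among the gene symbols listed for the libraries.

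The members and lists were chosen with earlier results of these data known. Named are all 10 members, *Acvr1b*, *Cd4*, the other BCL2 family genes tested, and the 4 genes with the highest mean CPM of each other list. A gene named by this rule is not reported here. Alternatives were other scalings, filters on low counts (none, or at least 10 counts in every library), the DESeq2 1.42.0 Wald test, a replicate block, and each library left out. The T cell marker scale and the crossed block were added after seeing the data.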

Additional observations from a re-analysis of the deposited data

How the results depend on the processing

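DESeq2's size factors, its Wald test, no filter, and at least 10 counts in every library changed no call among the 10 members. Among the genes of the 8 lists, the Wald test gave 23 higher and 8 lower. On the CD3 scale and the T cell marker scale (the latter chosen after seeing the data), no member was higher by edgeR (0 and 0, also 0 at an unadjusted p under 0.05), 9 and 9 were lower, 48 and 26 of all genes were higher and 12803 and 13101 lower, against 2422 and 2140 on the TMM scale, and 2 and 1 genes of the 8 lists were higher and 67 and 68 lower, against 24 and 9 on the TMM scale. There, *Bcl2l11* (-1.05 and -1.28), *Bid* (-1.84 and -2.07), *Mcl1* (-1.83 and -2.06) and *Pmaip1* (-1.53 and -1.76) turned, by the construction of these scales. With upper quartile scaling 2 members were lower, as *Bax* joined *Bcl2l1*; the cause was not tested.

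Leaving out each library in turn gave 2 to 3 members higher and 0 to 4 lower, 1103 to 2923 of all genes higher and 754 to 2618 lower, and 14 to 32 list genes higher and 4 to 12 lower. Omitting either WT replicate gave the 0 (0 and 1 at an unadjusted p under 0.05, edgeR), and the 4 came without CD4/ALK4-KO replicate 2. *Bak1* ran from -0.84 to 0.060, the latter without CD4/ALK4-KO replicate 1. The difference in the log2 ratio of *Bcl2l1* to *Bax* ran from -0.31 to 0.052, with 0.0014 without WT replicate 1.

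With the replicate number as a block, 2 members were higher and 0 lower (1 at an unadjusted p under 0.05), with 1768 of all genes higher and 1444 lower. *Bcl2l1* and *Pmaip1* lost their calls, and no other call among the members changed. The numbers share no stated litter or day, and same-numbered libraries deviated with a correlation of -0.26. The crossed block, added after seeing the data, gave 3 members higher and 3 lower, and 14 list genes lower.

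With 2 libraries per genotype, standard errors were 0.21 to 0.32 for the 10 members and reached 0.79 for *Bik* and 0.67 for *Bcl2l15*. Log2 fold changes well above their standard error could also fall short of the threshold. For example, *Bax* at -0.51 (SE 0.22), *Bcl2l2* at -0.54 (SE 0.27) and *Bik* at 1.82 (SE 0.79) did not pass the threshold. Whether these are real differences cannot be told from 2 libraries per genotype. *Bik* had only 10 and 1 counts in WT and 21 and 14 in CD4/ALK4-KO.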
